A study of Mus musculus with 19 samples.

Results

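The Slc25 family encodes the mitochondrial carriers, and it was followed here in small brain vessels (cerebral microvessels) from mice exposed to e-cigarette vapour, smoke or room air. Members were all protein-coding genes whose symbol is Slc25a followed by a number, which gave 47 of the 39179 genes listed, 21303 of them protein-coding. The pseudogene Slc25a5-ps also matches the symbol and was left out. Polyadenylated RNA was sequenced in 19 libraries of 5 groups: e-cigarette vapour with nicotine (Nic, 3 libraries), vapour free of nicotine (Nic-free, 4), smoke (smoke, 4), and 2 sets labelled as room air, titled air (4) and Room-air (4). All mice were male C57BL/6, 7 weeks old when purchased, with no transgene or deletion named in any group. The labels give no dose, length of exposure, collection time or batch, and do not say whether vessels of several mice were pooled, so a p-value here reflects the spread among libraries, which may be technical. Going by their titles only, Room-air served as control for both vapour groups and air for smoke.

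Mitochondrial carriers are small membrane proteins that move metabolites, nucleotides, cofactors and ions across the inner mitochondrial membrane, which is otherwise closed to most of them. They link the matrix, where fuels are oxidised and ATP is made, to the cytosol, where ATP is used and where many precursors come from. Brain endothelium is known for a high mitochondrial content, and neurons and astrocytes use their own sets of carriers, such as those for glutamate and aspartate.

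Library totals were 21800157 to 28364198 in Nic, 15200536 to 19137859 in Nic-free, 7939180 to 12607538 in smoke, 9761373 to 13490373 in air and 25266790 to 30185056 in Room-air. Vessel RNA was accompanied by RNA of other brain cells in each group, and no marker of any cell type checked was at 0 throughout a group. The 12 endothelial markers took 0.288 to 0.513% of counts in Nic, 0.195 to 0.295% in Nic-free, 0.232 to 0.315% in smoke, 0.129 to 0.233% in air and 0.279 to 0.382% in Room-air. The 12 neuron markers took 0.659 to 0.683% in Nic, 0.878 to 1.02% in Nic-free, 0.566 to 0.935% in smoke, 0.767 to 0.997% in air and 0.623 to 0.699% in Room-air. The 8 astrocyte markers took 0.337 to 0.359% in Nic, 0.404 to 0.470% in Nic-free, 0.321 to 0.565% in smoke, 0.326 to 0.379% in air and 0.286 to 0.365% in Room-air. The 10 choroid plexus and ependymal markers, of tissue lining the ventricles, took 0.300 to 0.921% in Nic, 0.133 to 2.26% in Nic-free, 0.239 to 3.53% in smoke, 0.456 to 2.84% in air and 2.25 to 3.00% in Room-air. In such bulk RNA, fewer cells of a type cannot be told apart from less RNA per cell.

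Family transcripts took 0.247 to 0.256% of counts in Nic, 0.273 to 0.283% in Nic-free, 0.277 to 0.301% in smoke, 0.281 to 0.299% in air and 0.255 to 0.280% in Room-air. CPM below means counts per 1000000 counts of a library, and a level per length is CPM per kb of annotated exon. Slc25a23, Slc25a3 and Slc25a4 together held 41.7% of the family's counts. Per length Slc25a4 led, at a mean of 154 CPM per kb over the 19 libraries, followed by Slc25a23 (75.7), Slc25a3 (70.4), Slc25a5 (68.2), Slc25a18 (32.5) and Slc25a39 (28.9). Means of Slc25a23, Slc25a3 and Slc25a5 lay close: in Room-air they were 62.01 ± 5.04, 73.4 ± 2.16 and 75.7 ± 8.89 CPM per kb (SD, n = 4), and in Nic 53.9 ± 4.53, 68.2 ± 2.06 and 48.5 ± 8.44 CPM per kb (n = 3). Among these genes Slc25a3 had the highest mean in Nic and Slc25a5 in Room-air, where it lay within 1 SD of Slc25a3, and Slc25a23 had the highest mean in Nic-free, smoke and air. Averaged over the libraries, 35 members lay above 10 CPM and 7 below 1 CPM. The 7 were Slc25a2, Slc25a21, Slc25a31, Slc25a41, Slc25a43, Slc25a48 and Slc25a54, and Slc25a54 had 3 reads in all, in 1 library.

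**Figure D1:**
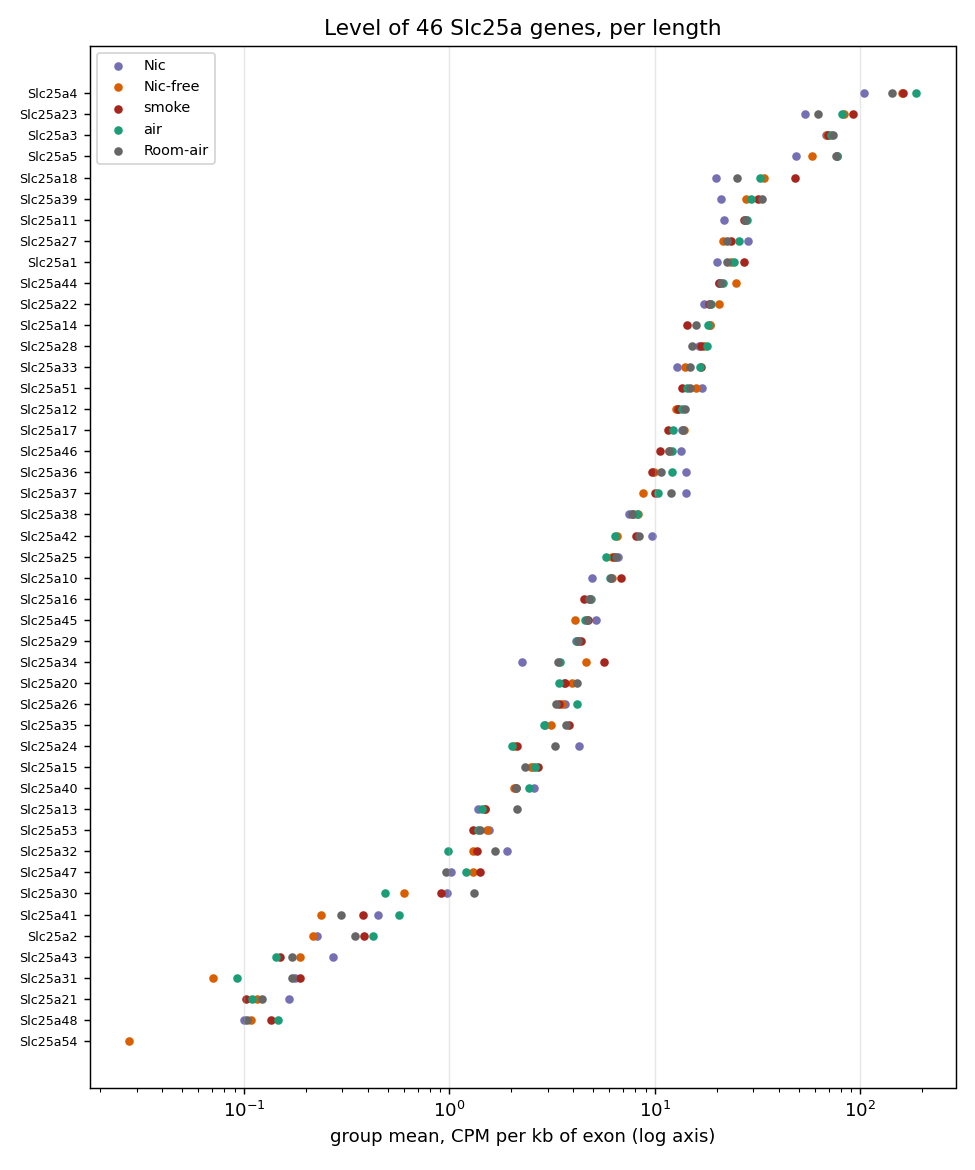
Mean level of 46 Slc25a genes in the 5 groups, in CPM per kb of exon on a log axis, ordered by the mean over the 19 libraries; group means of 0 are not drawn. Slc25a4 stands at 154 CPM per kb and the lowest members lie below 1.

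Of the 47 members, 20 passed the test in at least 1 of 5 group comparisons (edgeR quasi-likelihood test, Benjamini-Hochberg adjustment over all genes tested, adjusted p under 0.05) and 27 in none. The share of all genes passing in at least 1 comparison was not counted, so whether 20 members is many cannot be said. Shares of all genes are given per comparison below. Nic against Room-air, which asks what vapour with nicotine does, had 5 of 46 tested members lower and none higher, where 2.67% of all genes tested were lower, 1.22% higher and 3.89% in either direction. Nic against Nic-free, the comparison that differs by nicotine, had 6 higher and 10 lower of 46, where 24.8% of all genes passed, 12.4% in each direction. In Nic-free against Room-air 5 rose and 3 fell of 46, against 21.8% of all genes (11.3% higher, 10.4% lower). Smoke against air gave no call among 40 members tested, where 1.6% of all genes passed (1.08% higher, 0.519% lower). For the air sets, which share an exposure label, 4 members were higher and 4 lower in air than in Room-air of 42 tested, where 22.7% of all genes passed (10.7% higher, 12% lower). Median log2 fold changes of the members lay near those of all genes tested: -0.017 and 0.028 in Nic against Room-air, -0.084 and 0.021 in Nic against Nic-free, 0.049 and 0.0042 in Nic-free against Room-air, 0.013 and 0.019 in smoke against air, and 0.064 and -0.0027 in air against Room-air. Slc25a54 passed the filter on low counts in no comparison, and 6 further members below 1 CPM were not tested in smoke against air. These comparisons share libraries: Room-air serves 3 of them, and Nic, Nic-free and air serve 2 each.

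The calls of both vapour groups depended on the libraries and on which air set served as control. The 5 calls of Nic against Room-air numbered 0 without Nic 1, 0 without Room-air 2, 1 without Room-air 1, 2 without Room-air 4, 3 without Nic 2 and 11 without Nic 3. Among all genes the calls moved alike. They numbered 0 of 17516 without Nic 1, 0 of 17015 without Room-air 2 and 111 of 17007 without Room-air 1. They were 324 of 17028 without Room-air 4, 422 of 17312 without Nic 2 and 2956 of 17304 without Nic 3. Member calls lost without Nic 1 or Room-air 2 in this comparison were thus lost with those of all genes. With the air set as control Nic had 17 of 42 members past the threshold, where 30% of all genes passed, and all 5 genes were among them and lower. For Nic-free the count was 0 of 42 with the air set as control, where 4.22% of all genes passed, and 5 without Nic-free 2 or without Nic-free 4. Of all genes 2186 of 17212 passed without Nic-free 2 and 2346 of 17198 without Nic-free 4. The 16 calls of Nic against Nic-free numbered 10 without Nic-free 3 and 8 without Nic 1, where 3379 of 17212 and 2401 of 17516 genes passed. Member calls of air against Room-air numbered 5 without Room-air 3, 5 without air 2 and 4 without air 3. Counts of all genes in these fits of the air sets are not given here, so whether the drop was particular to members cannot be said. Neuron markers moved with 3 of these comparisons: with their mean log2 CPM as covariate the count was 0 in Nic against Nic-free, 0 in Nic-free against Room-air and 1 in air against Room-air. Of all genes, 6 of 17235, 47 of 17235 and 862 of 16557 passed in these 3 fits, so the low counts were shared with all genes. With choroid plexus and ependymal markers as covariate the member count was 0 in Nic against Room-air, 0 in Nic-free against Room-air and 16 in Nic against Nic-free. Of all genes, 0, 223 and 4095 of 17235 passed in these comparisons with choroid markers. Since these markers differ between the same groups, their part in the results cannot be told apart from that of the exposure.

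**Figure D2:**
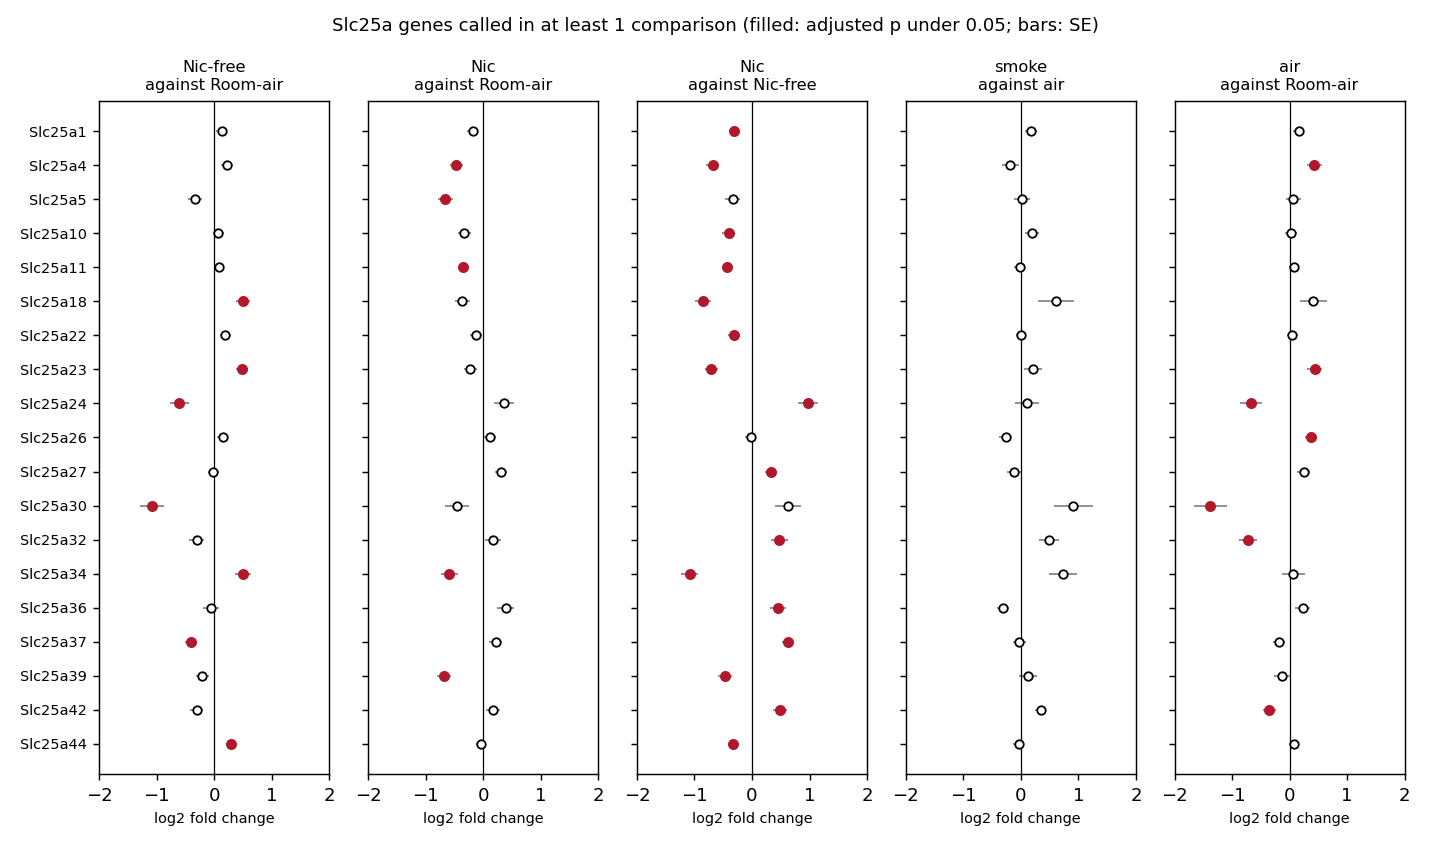
Log2 fold change (x axis, with its SE as a bar) of 19 Slc25a genes that passed in at least 1 comparison, in the 5 group comparisons. Filled points passed at an adjusted p under 0.05, and open points did not. All 5 filled points of Nic against Room-air lie below 0, and smoke against air has no filled point.

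The ADP/ATP carriers exchange ADP for ATP made in the matrix, and they carried the highest family level. Slc25a4 (ENSMUSG00000031633, chromosome 8, 46206797 to 46211284 on GRCm38) encodes the form known from heart, skeletal muscle and brain, and Slc25a5 (ENSMUSG00000016319, chromosome X, 36795651 to 36798807) a form found in most other tissues. Their promoters are printed because both genes fell in Nic against Room-air, together with that of Slc25a39, which had the lowest adjusted p there. Each covers 250 bases before to 50 after the start in RefSeq (GRCm38.p6), 5′ to 3′ on the gene's strand. These starts differ from the gene coordinates given here, which are from GENCODE M21. The Slc25a5 window ends at 36795646, before the gene start at 36795651. Capitals mark GGGCGG, a motif of Sp factors, and CCGGAAG, a motif of ETS factors such as GABP, on either strand. Slc25a4 is at chr8:46211013-46211312 on the minus strand, Slc25a5 at chrX:36795347-36795646 on the plus strand and Slc25a39 at chr11:102407468-102407767 on the minus strand.
Slc25a4: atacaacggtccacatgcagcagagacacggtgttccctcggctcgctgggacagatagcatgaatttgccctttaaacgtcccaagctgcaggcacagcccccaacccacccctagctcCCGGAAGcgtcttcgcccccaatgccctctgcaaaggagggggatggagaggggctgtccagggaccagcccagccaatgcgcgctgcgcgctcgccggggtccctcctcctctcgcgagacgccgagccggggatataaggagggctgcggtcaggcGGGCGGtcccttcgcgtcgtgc
Slc25a5: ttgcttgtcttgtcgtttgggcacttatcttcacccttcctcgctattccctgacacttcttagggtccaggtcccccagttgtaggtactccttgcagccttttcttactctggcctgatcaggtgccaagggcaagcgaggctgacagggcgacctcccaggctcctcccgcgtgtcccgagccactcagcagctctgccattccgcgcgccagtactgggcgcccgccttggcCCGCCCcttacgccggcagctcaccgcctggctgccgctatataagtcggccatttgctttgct
Slc25a39: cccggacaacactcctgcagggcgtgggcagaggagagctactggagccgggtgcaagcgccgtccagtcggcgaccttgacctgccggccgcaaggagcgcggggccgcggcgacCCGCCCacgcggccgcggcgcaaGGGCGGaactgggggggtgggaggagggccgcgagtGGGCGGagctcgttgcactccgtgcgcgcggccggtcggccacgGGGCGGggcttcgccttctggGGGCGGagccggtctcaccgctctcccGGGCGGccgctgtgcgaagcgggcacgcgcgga
Slc25a4 has 1 match to each motif, Slc25a5 has 1 to GGGCGG, and Slc25a39 has 6 to GGGCGG and none to CCGGAAG. The motifs do not overlap each other in these windows. GGGCGG was found in 38 of 46 windows of 36 members (82.6%) and in 35.7% of all 32851 windows, and CCGGAAG in 15.2% and 8.86%. The NRF1 motif was found in 4.35% of member windows and 4.60% of all, AANATGGCG, of YY1, in 2.17% and 2.38%, CACGTG, the E-box, in 17.4% and 7.15%, and TCAAGGTCA, of ERR receptors, in none and 0.423%. The 3 windows printed hold none of the last 4 motifs. Member windows had a median of 59.3% G and C, against 52.7% over all windows.

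Slc25a4 had 226, 237 and 276 CPM in Nic libraries, 369, 403, 355 and 376 in Nic-free, 377, 463, 342 and 339.6 in smoke, 389.7, 481, 495 and 391 in air and 400.3, 313, 315 and 312 in Room-air. The 3 Nic libraries lay below the other 16 libraries, while Nic-free, smoke and Room-air overlapped. The log2 fold change was -0.46 ± 0.11 (SE; edgeR adjusted p 0.0376) in Nic against Room-air and -0.68 ± 0.11 (SE; edgeR adjusted p 0.00101) in Nic against Nic-free. Air was higher than Room-air (log2 0.43 ± 0.13, adjusted p 0.0233), although 1 Room-air library, at 400.3 CPM, reached above the lower 2 of air. Nic-free against Room-air (0.22 ± 0.10, adjusted p 0.144) and smoke against air (-0.18 ± 0.15, adjusted p 0.544) did not pass. Nic against Nic-free passed without each library in turn, whereas Nic against Room-air passed in 2 of 7 such fits and air against Room-air in 3 of 8.

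Slc25a5 had 67.3, 77.2 and 94.7 CPM in Nic, 110.0, 95.2, 91.6 and 85.4 in Nic-free, 138, 131, 139 and 100.3 in smoke, 108, 116, 144 and 137 in air and 145, 122, 121 and 110.2 in Room-air. Nic lay below Room-air in each library and overlapped with Nic-free, and smoke and air overlapped. It fell in Nic against Room-air by log2 -0.66 ± 0.13 (SE; edgeR adjusted p 0.023), in a test that passed in 4 of 7 fits without 1 library and was lost without Room-air 1, Room-air 2 or Nic 1. The other comparisons gave -0.33 ± 0.13, adjusted p 0.0779 in Nic against Nic-free, -0.33 ± 0.12, adjusted p 0.0625 in Nic-free against Room-air, 0.02 ± 0.14, adjusted p 0.942 in smoke against air and 0.06 ± 0.14, adjusted p 0.759 in air against Room-air. Slc25a5 has processed copies elsewhere in the genome, and reads shared with them could be lost or split, so its level is uncertain.

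Per length the ratio of Slc25a4 to Slc25a5 was 2.35, 2.14 and 2.04 in Nic, 2.35, 2.96, 2.71 and 3.08 in Nic-free, 1.92, 2.47, 1.72 and 2.37 in smoke, 2.53, 2.89, 2.40 and 1.99 in air, and 1.93, 1.79, 1.82 and 1.98 in Room-air. Nic, Nic-free and the unexposed air set all lay above Room-air without overlap, so the separation from Room-air was not particular to vapour. The ratio averaged 2.18 ± 0.161 in Nic (SD, n = 3), 2.78 ± 0.326 in Nic-free, 2.12 ± 0.359 in smoke, 2.45 ± 0.371 in air and 1.88 ± 0.0891 in Room-air (n = 4 each). It is given as a description, with no test.

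**Figure D3:**
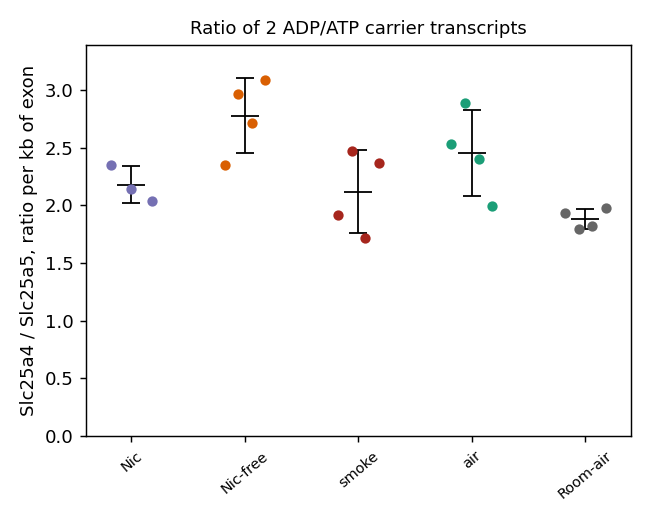
Ratio of Slc25a4 to Slc25a5 (CPM per kb of exon) in each library (points), with the mean and SD of each group (bars). Nic, Nic-free and the unexposed air set lie above the 4 Room-air libraries, which stand at 1.79 to 1.98, and smoke overlaps with air and Room-air.

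Slc25a23, Slc25a24 and Slc25a25 encode calcium-regulated carriers that exchange ATP-magnesium for phosphate and so set the adenine nucleotide pool of the matrix. Slc25a23 had 259.6, 289 and 307 CPM in Nic, 404, 505, 442 and 418 in Nic-free, 448, 629, 383 and 495 in smoke, 418, 438, 452 and 417 in air and 359, 319.8, 297 and 337 in Room-air. Nic-free and air lay above Room-air without overlap, Nic overlapped with Room-air, and smoke spread widest, with smoke 2 highest. It was higher in Nic-free than in Room-air (log2 0.48 ± 0.10, adjusted p 0.00495), lower in Nic than in Nic-free (-0.70 ± 0.11, adjusted p 0.000763) and higher in air than in Room-air (0.43 ± 0.14, adjusted p 0.0266). Smoke against air gave 0.21 ± 0.16, adjusted p 0.508. In the comparison of the air sets the test was lost without Room-air 2, Room-air 3, air 2 or air 3.

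Slc25a24 was expressed at a far lower level and had the opposite sign in the 3 comparisons in which both passed. Its level was 17.2, 12.5 and 14.3 CPM in Nic, 6.18, 7.59, 7.89 and 6.64 in Nic-free, 6.97, 6.93, 7.70 and 7.54 in smoke, 9.79, 6.86, 4.30 and 6.60 in air and 13.5, 9.02, 13.8 and 8.51 in Room-air. Nic lay above Nic-free and Nic-free below Room-air without overlap, while 1 air library reached into the range of Room-air. Differences were log2 0.97 ± 0.18, adjusted p 0.00167 in Nic against Nic-free, -0.61 ± 0.17, adjusted p 0.0195 in Nic-free against Room-air and -0.67 ± 0.19, adjusted p 0.0173 in air against Room-air. The calls against Room-air were lost without Room-air 1 or Room-air 3, and also without Nic-free 4 in the first and air 3 in the second. Slc25a25 averaged 52.2 ± 1.80 CPM in Nic (SD, n = 3) and 51.03 ± 5.85 CPM in Room-air (n = 4) and passed in no comparison. The related Slc25a41 and the ADP/ATP carrier Slc25a31, known from testis, lay below 1 CPM.

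The phosphate that ATP synthase needs enters through Slc25a3, which varied little. Its level was 382, 387 and 365 CPM in Nic, 405, 379, 365 and 386 in Nic-free, 398, 355, 434 and 351 in smoke, 393, 392, 401 and 401 in air and 403, 421, 393 and 413 in Room-air. No comparison passed, with log2 fold changes from -0.13 in Nic against Room-air to 0.00078 in air against Room-air.

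**Figure D4:**
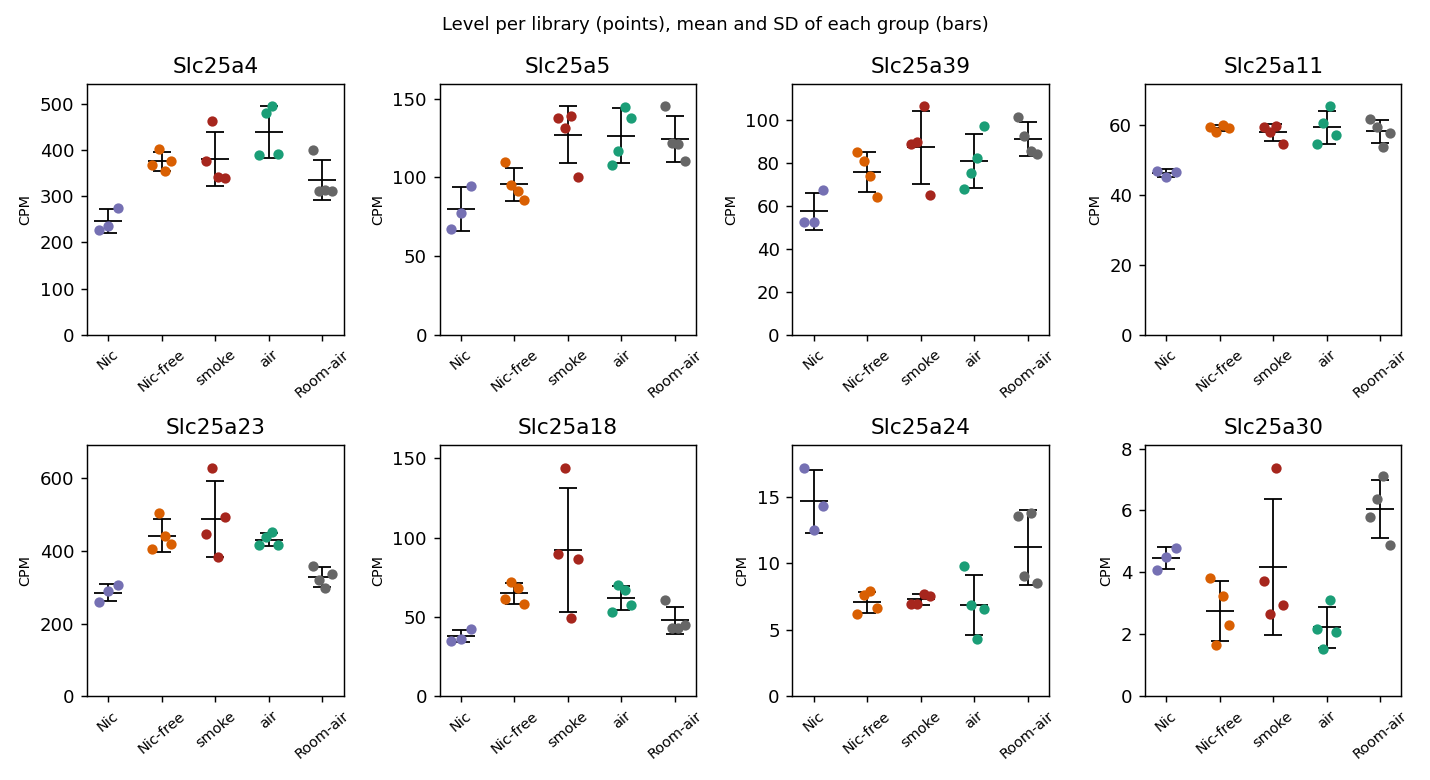
CPM of 8 Slc25a genes in each library (points), with the mean and SD of each group (bars). Nic libraries lie below all others for Slc25a4, Slc25a11 and Slc25a18, and smoke spreads widely for Slc25a18, Slc25a23 and Slc25a30.

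Among carriers of di- and tricarboxylates, which export citrate and move malate between matrix and cytosol, 3 of 4 fell in Nic against Nic-free, where 12.4% of all genes were lower, and 1 of 4 in Nic against Room-air, where 2.67% were. Slc25a11, the 2-oxoglutarate/malate carrier of the malate-aspartate shuttle, had 46.9, 44.96 and 46.6 CPM in Nic, 59.3, 58.01, 59.9 and 59.2 in Nic-free, 59.3, 57.8, 59.7 and 54.5 in smoke, 54.5, 60.5, 65.2 and 56.96 in air and 61.7, 59.3, 53.8 and 57.5 in Room-air. Nic lay below the other 16 libraries, and the 4 other groups overlapped. The fall was log2 -0.35 ± 0.08 (SE; edgeR adjusted p 0.029) against Room-air and -0.43 ± 0.08 (SE; edgeR adjusted p 0.00171) against Nic-free. Without 1 library in turn it passed in 7 of 7 fits against Nic-free and in 2 of 7 against Room-air, where it was lost without Room-air 1, 2 or 4 or Nic 1 or 2. Its exons overlap those of Rnf167 on the other strand, and the sources used here do not give whether counting used strand, so reads of such pairs could not be told apart. The same doubt holds for Slc25a10, Slc25a18, Slc25a23, Slc25a26 and Slc25a37, whose exons also overlap those of genes on the other strand.

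Slc25a10, the dicarboxylate carrier, had 17.7, 18.05 and 15.3 CPM in Nic and 21.6, 20.8, 23.3 and 19.7 in Nic-free, against 19.9, 24.5, 19.2 and 20.6 in Room-air. Slc25a1, the citrate carrier that supplies acetyl units for lipid synthesis, had 44.6, 42.2 and 42.9 in Nic and 47.5, 48.5, 57.5 and 50.3 in Nic-free, against 48.7, 54.4, 42.6 and 47.5 in Room-air. Both separated Nic from Nic-free without overlap, Slc25a10 also lay below Room-air in each Nic library, and Slc25a1 overlapped between Nic and Room-air. The log2 fold changes in Nic against Nic-free were -0.40 ± 0.11, adjusted p 0.0183 for Slc25a10 and -0.31 ± 0.10, adjusted p 0.033 for Slc25a1. Leaving out 1 library kept the call of Slc25a10 in 4 of 7 fits and that of Slc25a1 in 1 of 7. Slc25a21, an oxodicarboxylate carrier, lay below 1 CPM.

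Glutamate and aspartate carriers serve the malate-aspartate shuttle and glutamate oxidation. Slc25a18, a glutamate carrier known in brain mainly from astrocytes, had 35.00, 36.2 and 42.1 CPM in Nic, 61.2, 72.2, 68.2 and 57.9 in Nic-free, 89.4, 144, 49.5 and 86.2 in smoke, 53.3, 69.9, 66.6 and 57.6 in air and 60.6, 42.7, 43.1 and 44.9 in Room-air. Nic lay below the other 16 libraries, Nic-free above 3 of the 4 Room-air libraries, and smoke had both the highest library, smoke 2, and one below the range of air. It fell in Nic against Nic-free (log2 -0.85 ± 0.13, adjusted p 0.000698) and rose in Nic-free against Room-air (0.49 ± 0.12, adjusted p 0.0105), in both without each library in turn. Nic against Room-air (-0.36 ± 0.13, adjusted p 0.11) and smoke against air (0.61 ± 0.32, adjusted p 0.347) did not pass. Astrocyte markers were higher in Nic-free (0.404 to 0.470% of counts) than in Room-air (0.286 to 0.365%) and Nic (0.337 to 0.359%), as was Slc25a18 on average. Between Nic and Room-air they did not move with it: Nic lay within the Room-air range of the markers but below all Room-air libraries for Slc25a18. In air (0.326 to 0.379%) they overlapped with Room-air. The part of these markers in the result was not tested beyond a fit with them as covariate, in which no member passed in Nic-free against Room-air. In that fit 5 of 17235 genes passed. Smoke 2, the highest library of Slc25a18 and Slc25a23, was also the highest in astrocyte markers, at a mean log2 CPM of 8.31.

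Slc25a22, a glutamate carrier known from neurons, had 103, 105 and 102 CPM in Nic, 114, 119.8, 131 and 126 in Nic-free and 118, 126, 90.9 and 109.6 in Room-air. Nic lay below Nic-free and within Room-air. Its log2 fold change in Nic against Nic-free was -0.32 ± 0.11, adjusted p 0.039, and the call held in 1 of 7 fits without 1 library. Slc25a12, the aspartate/glutamate carrier aralar, averaged 94.9 ± 8.19 CPM in Nic, 92.9 ± 5.90 in Nic-free and 102 ± 6.32 in Room-air (SD, n = 3, 4 and 4) and passed nowhere, and neither did its relative Slc25a13 at 5.22 ± 1.34, 5.63 ± 1.65 and 8.06 ± 0.595 CPM.

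Of 8 carriers of coenzymes, vitamins, NAD and glutathione 1 fell in Nic against Room-air, where 2.67% of all genes were lower. Slc25a39 (ENSMUSG00000018677, chromosome 11, 102402985 to 102407946), which brings glutathione into the matrix, had 52.8, 52.5 and 67.5 CPM in Nic, 85.4, 80.96, 73.9 and 64.1 in Nic-free, 88.8, 89.7, 106 and 65.1 in smoke, 68.1, 75.4, 82.7 and 97.4 in air and 102, 92.6, 85.9 and 84.4 in Room-air. Nic lay below Room-air and air without overlap, and its highest library reached into Nic-free and smoke. It fell by log2 -0.68 ± 0.12 (SE; edgeR adjusted p 0.0199) against Room-air and -0.47 ± 0.12 (SE; edgeR adjusted p 0.013) against Nic-free. The first was lost without Room-air 2 or Nic 1, the second without Nic 1. Slc25a40, of the same transport, averaged 21.6 ± 4.75 CPM in Nic (SD, n = 3) and 17.7 ± 2.26 in Room-air (n = 4) with a log2 fold change of 0.26 ± 0.14, adjusted p 0.266.

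Slc25a42, a carrier of coenzyme A, had 60.6, 51.04 and 61.6 CPM in Nic, 40.98, 34.7, 43.7 and 38.1 in Nic-free, 53.95, 39.05, 50.9 and 49.4 in smoke, 37.4, 39.3, 36.5 and 40.5 in air and 46.8, 61.04, 42.5 and 50.5 in Room-air. Nic was above Nic-free and air below Room-air without overlap. The tests gave log2 0.48 ± 0.12, adjusted p 0.0117 in Nic against Nic-free and -0.35 ± 0.11, adjusted p 0.0253 in air against Room-air, the second lost without Room-air 2, air 1, air 2 or air 3. In smoke against air Slc25a42 had the lowest adjusted p of the family (log2 0.35 ± 0.09, adjusted p 0.0798), with 1 smoke library within the range of air.

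Slc25a32, which carries flavin and folate, had 12.6, 12.2 and 9.80 CPM in Nic, 8.48, 7.42, 7.89 and 7.70 in Nic-free, 6.40, 7.68, 11.3 and 7.61 in smoke, 6.32, 6.45, 5.49 and 5.66 in air and 9.18, 9.22, 13.1 and 8.96 in Room-air. Air lay below every Room-air library, and Nic above Nic-free. It was lower in air than in Room-air (log2 -0.72 ± 0.16, adjusted p 0.00311) and higher in Nic than in Nic-free (0.48 ± 0.15, adjusted p 0.0285), and the call in Nic held in 2 of 7 fits without 1 library. Slc25a16, Slc25a17, which serves peroxisomes, and Slc25a51, the NAD carrier, passed nowhere. Slc25a51 averaged 93.4 ± 5.54 CPM in Nic (SD, n = 3) and 81.9 ± 2.44 CPM in Room-air (n = 4).

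Iron for haem and iron-sulphur clusters enters through mitoferrins. Slc25a37, mitoferrin 1, had 86.6, 93.8 and 75.6 CPM in Nic, 54.7, 51.4, 50.01 and 54.2 in Nic-free, 64.6, 44.7, 68.6 and 62.7 in smoke, 67.1, 57.9, 56.6 and 66.7 in air and 63.01, 82.8, 69.5 and 73.9 in Room-air. Nic-free lay below both Nic and Room-air without overlap. Its log2 fold change was 0.63 ± 0.11, adjusted p 0.00117 in Nic against Nic-free and -0.41 ± 0.10, adjusted p 0.0104 in Nic-free against Room-air, both kept without each library in turn. The 7 erythroid markers took 0.0513 to 0.0750% of counts in Nic, 0.0413 to 0.0569% in Nic-free and 0.0418 to 0.0618% in Room-air, and their part in the result was not tested. Mitoferrin 2, Slc25a28, averaged 61.6 ± 2.35 CPM in Nic, 64.7 ± 6.00 in Nic-free and 56.8 ± 8.66 in Room-air (SD, n = 3, 4 and 4) and did not pass.

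Slc25a36, a carrier of pyrimidine nucleotides, had 144, 169.8 and 95.8 CPM in Nic, 102, 89.8, 88.7 and 98.7 in Nic-free and 92.4, 102, 107 and 107 in Room-air. Nic 1 and Nic 2 lay above the other libraries of both groups and Nic 3 among them, and the call in Nic against Nic-free (log2 0.45 ± 0.15, adjusted p 0.0369) held in 2 of 7 fits without 1 library. Its relative Slc25a33 passed in none of the comparisons.

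Carriers related to the uncoupling proteins, which let protons or anions leak back into the matrix, include Slc25a14, Slc25a27 and Slc25a30. Slc25a30 had 4.08, 4.51 and 4.79 CPM in Nic, 3.81, 1.66, 3.24 and 2.30 in Nic-free, 3.72, 2.65, 7.38 and 2.93 in smoke, 2.16, 1.54, 3.11 and 2.07 in air and 5.80, 6.37, 7.12 and 4.88 in Room-air. Room-air stood above Nic, Nic-free and air without overlap, and 1 smoke library, smoke 3, was the highest of all. It had the largest log2 fold changes of a called member against Room-air, at -1.08 ± 0.21, adjusted p 0.00344 in Nic-free and -1.38 ± 0.28, adjusted p 0.00233 in air, both kept without each library in turn. Nic against Room-air (-0.45 ± 0.22, adjusted p 0.211) and smoke against air (0.91 ± 0.33, adjusted p 0.166) did not pass. Choroid plexus and ependymal markers moved with it: their mean log2 CPM was 7.66 to 8.06 in Room-air, above every Nic, Nic-free and air library, and highest in smoke 3, at 8.31. With these markers as covariate the log2 fold change was -0.74 in Nic-free against Room-air, which did not pass (edgeR adjusted p 0.208), and -0.98 in air against Room-air, which passed (0.012). With neuron markers as covariate neither passed (-0.60, adjusted p 0.542 in Nic-free, and -0.87, 0.12 in air).

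Slc25a27, found mainly in neurons, had 115, 118 and 100.1 CPM in Nic, 83.6, 81.9, 84.02 and 86.05 in Nic-free and 75.9, 95.5, 80.98 and 99.1 in Room-air. Nic was above Nic-free without overlap (log2 0.33 ± 0.11, adjusted p 0.0321), in a call that held in 1 of 7 fits without 1 library. Slc25a14, a further neuronal form, had 40.4, 29.98, 33.5 and 32.04 CPM in smoke and 43.8, 42.1, 41.7 and 43.1 in air, which did not overlap, with log2 -0.31 ± 0.09, adjusted p 0.107.

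Slc25a44, which carries branched-chain amino acids, had 71.2, 76.5 and 72.9 CPM in Nic, 86.4, 91.8, 86.2 and 89.3 in Nic-free, 71.7, 77.6, 67.4 and 77.4 in smoke, 75.9, 78.1, 80.9 and 70.7 in air and 78.1, 72.9, 67.6 and 79.9 in Room-air. Nic-free lay above the other 15 libraries. It was higher in Nic-free than in Room-air (log2 0.29 ± 0.08, adjusted p 0.0189, lost without Room-air 3 or Nic-free 2) and lower in Nic than in Nic-free (-0.34 ± 0.09, adjusted p 0.0118, lost without Nic 1). Slc25a26, the S-adenosylmethionine carrier, had 20.04, 21.6, 18.7 and 19.7 CPM in air and 14.4, 18.3, 15.6 and 15.3 in Room-air. Air lay above the other 15 libraries (log2 0.37 ± 0.09, adjusted p 0.00766 against Room-air), and the call was kept without each library in turn. Slc25a38, a glycine carrier of haem synthesis, Slc25a15, an ornithine carrier, and Slc25a29, of basic amino acids, passed nowhere, and neither did Slc25a20, the carnitine carrier of fatty acid oxidation, nor Slc25a46, a protein of the outer membrane.

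Slc25a34, given no substrate here, had 4.59, 5.81 and 7.72 CPM in Nic, 11.4, 12.3, 12.3 and 13.1 in Nic-free, 14.04, 21.3, 10.8 and 14.2 in smoke, 8.09, 11.8, 10.3 and 6.51 in air and 9.34, 8.38, 9.26 and 8.96 in Room-air. Nic lay below Nic-free and Room-air and Nic-free above Room-air, each without overlap, and smoke 2 was the highest library. It had the largest fall of a called member in Nic against Nic-free (log2 -1.08 ± 0.15, adjusted p 0.000413), and changed in Nic against Room-air (-0.59 ± 0.15, adjusted p 0.0457) and in Nic-free against Room-air (0.50 ± 0.14, adjusted p 0.0192). Without 1 library in turn the call against Nic-free held in all 7 fits, that in Nic against Room-air in 1 of 7 and that in Nic-free against Room-air in 5 of 8, lost without Room-air 2, Nic-free 2 or Nic-free 4. Slc25a35, Slc25a43, Slc25a45, Slc25a47, Slc25a48 and Slc25a53 passed in no group comparison. Exons of Slc25a35 overlap those of Rangrf on the other strand.

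Smoke against air asks what smoke exposure does (the labels do not name the kind of smoke), and none of the 40 members tested passed with edgeR, with 8 at an unadjusted p under 0.05. DESeq2 called 2, Slc25a42 (log2 0.34, adjusted p 0.0283) and Slc25a14 (-0.32, 0.0489), where 913 of 13625 genes passed. In edgeR the values nearest the threshold after Slc25a42 and Slc25a14 were those of Slc25a34 (log2 0.74 ± 0.24, adjusted p 0.137), Slc25a36 (-0.31 ± 0.11, adjusted p 0.153) and Slc25a30 (0.91 ± 0.33, adjusted p 0.166). Approximate 95% intervals for the log2 fold change in smoke against air were built from the SE with a normal distribution. They ran from -0.48 to 0.11 for Slc25a4, -0.24 to 0.29 for Slc25a5, -0.17 to 0.44 for Slc25a39 and -0.20 to 0.16 for Slc25a11. Such intervals are narrower than those of the edgeR test, and a change within these bounds could not be told apart from none here. Without smoke 2 and smoke 3, the libraries highest in astrocyte and choroid markers, no member passed either. With the Room-air set as control 6 members were higher in smoke, where 6.2% of all genes passed, among them Slc25a23 (log2 0.63, edgeR adjusted p 0.0125), Slc25a18 (1.01, 0.0206) and Slc25a34 (0.79, 0.0249).

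Whether the smoke effect differed from each vapour effect was tested in the fit of all 19 libraries. Smoke minus Nic-free passed for 7 of 42 members, 4 positive and 3 negative, against 21.5% of all genes (11.2% positive, 10.3% negative). Smoke minus Nic also passed for 7 of 42, 5 positive and 2 negative, against 5.59% of all genes (2.78% positive, 2.8% negative). Both share the smoke, air and Room-air libraries. The largest were those of Slc25a30 against Nic-free (log2 2.00 ± 0.40, adjusted p 0.00213) and Slc25a34 against Nic (1.33 ± 0.30, adjusted p 0.0234). The difference of air from Room-air enters both with the opposite sign, at log2 -1.38 for Slc25a30 and 0.067 for Slc25a34. Smoke against air alone passed for neither (0.91, edgeR adjusted p 0.166, and 0.74, 0.137).

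Of 15 genes of carrier import, which bring carrier proteins through the outer membrane to the inner one, 7 fell in Nic against Nic-free with none higher, 3 rose in Nic-free against Room-air and 5 were higher in air than in Room-air. Of all genes tested, 12.4% were lower in the first, 11.3% higher in the second and 10.7% higher in the third of these comparisons. Neuron markers moved with all 3, being lower in Nic than in Nic-free and higher in Nic-free and in air than in Room-air, without overlap of their summed shares, and their part in the import genes' values was not tested. In mean log2 CPM these markers overlapped between air and Room-air, at 8.60 in air 4 and 8.66 in Room-air 1. Timm8b, a small chaperone of the space between the membranes, had log2 -0.75 ± 0.12 in Nic against Nic-free (adjusted p 0.000715), 0.42 ± 0.11 in Nic-free against Room-air (0.0128) and 0.73 ± 0.15 in air against Room-air (0.00247). Tomm20, a receptor of the outer membrane, fell in Nic against Nic-free by 0.49 on the log2 scale, and Timm9, another small chaperone, was higher in air by 0.56. No import gene passed in Nic against Room-air or, of 14 tested, in smoke against air. List medians in Nic against Nic-free and in Nic against Room-air were -0.31 and -0.16.

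Other transporters of the inner membrane passed in 5 of 18 in Nic against Nic-free (1 higher, 4 lower), 6 in Nic-free against Room-air (5 and 1), 7 in air against Room-air (5 and 2), none in Nic against Room-air and 1 in smoke against air. The shares of all genes that passed were 24.8% in Nic against Nic-free, 21.8% in Nic-free against Room-air and 22.7% in air against Room-air, so the count in Nic against Nic-free was close to the background. Smdt1, a part of the calcium uniporter, had log2 -0.85 ± 0.14 in Nic against Nic-free (adjusted p 0.000938), as did Sfxn5, a sideroflexin, with -0.61 ± 0.10 (0.0011). Sfxn5 rose and Sfxn3 fell in Nic-free against Room-air (log2 0.43 and -0.37). Micu3, a regulator of the uniporter known from brain, rose in Nic-free (0.60), was higher in air than in Room-air (0.71) and was the gene that fell in smoke against air (-0.63 ± 0.10, adjusted p 0.0254). Mcu, the pore of the uniporter, and Micu2, a regulator, were higher in air (0.34 and 0.32).

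Among 5 carriers of the family whose names fall outside the symbol rule, Mtch1, an outer membrane carrier homologue, fell in Nic against Room-air (log2 -0.54 ± 0.10, adjusted p 0.0218) and in Nic against Nic-free (-0.52 ± 0.10, 0.00281). Ucp2, an uncoupling protein, was lower than Room-air in Nic (-0.98 ± 0.23, adjusted p 0.0383), Nic-free (-0.93 ± 0.21, 0.00951) and air (-1.23 ± 0.30, 0.00973). All 3 share the Room-air libraries, in which the mean log2 CPM of choroid markers lay above all Nic, Nic-free and air libraries. The summed shares of these markers overlapped between Room-air and both Nic-free and air. The part of these markers in the result was not tested. Of 17 genes of mitochondrial content and biogenesis 2 rose and 3 fell in Nic against Nic-free, near the 24.8% of all genes that passed there. Among them was Gabpa, a transcription factor of mitochondrial genes, at 0.58 ± 0.11 (adjusted p 0.00246). Ppargc1b, a coactivator, rose in Nic-free against Room-air (0.66 ± 0.12, 0.00199). None of the 17 passed in Nic against Room-air or in smoke against air. Of the 3 channels of the outer membrane 1, Vdac1, fell in Nic against Nic-free (-0.39) and 1, Vdac3, was higher in air than in Room-air (0.34), and both were named after their values were seen.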

How the data were processed

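Per the labels' protocols, the RNA was extracted with TRIzol, the molecule was polyA RNA, and strand-specific single-end libraries were read for 80 nt. Per the submitters' processing notes, STAR, HTSeq and mm10 were used, with versions not given in the sources used here. The deposited files hold raw counts per gene made by the authors, 1 file per library. The 5 summary lines of each file were kept out of totals and tests. Reads with no feature came to 33.0 to 38.4% in Nic, 38.9 to 45.2% in Nic-free and 28.7 to 33.4% in Room-air. They came to 28.9 to 33.2% in smoke and 33.6 to 37.5% in air. Nic-free thus lay above Nic and Room-air, and smoke below air, without overlap. The part of this difference in the results was not tested and cannot be told apart from that of the exposure. Symbols, biotypes and exon lengths came from GENCODE M21, which matched 37693 of 39179 gene lines.

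Counts were tested with edgeR 4.0.16 (R 4.3.3): TMM scaling, filterByExpr with a minimum count of 10, robust quasi-likelihood fits, and Benjamini-Hochberg adjustment over all genes at 0.05. Nic, Nic-free and Room-air shared 1 fit, smoke and air another, and all 19 libraries were fitted together for air against Room-air and differences of effects. A log2 fold change has its SE from the F statistic. CPM used the library total without TMM. Scripts were tested on simulated data. No libraries were duplicates. The values of 1 member are not reported here, though it is in the counts of members. DESeq2 1.42.0, other scalings, filters, controls, covariates, a replicate block and leaving out each library were alternatives. The members, gene lists and tests were chosen with earlier results of these data known. Members described by rule are those past the threshold and the 6 with the highest level per length. Others given values, such as Slc25a14 and Slc25a51, were added beside them outside this rule. Of the lists at most 6 genes per comparison were named, by smallest adjusted p.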

Additional observations from a re-analysis of the deposited data

Results flagged for a closer look

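In 3 of 84 groups of 4 libraries looked at, 1 library stood far from its group, where chance flags about 1 group in 20. Slc25a4 had 400.3 CPM in Room-air 1, against 312.1 to 314.6 CPM in the other 3 Room-air libraries. The same library held 60.6 CPM of Slc25a18, with 42.7 to 44.9 CPM in the others. Slc25a32 had 13.1 CPM in Room-air 3, against 8.96 to 9.22 CPM in the others.

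The effect of smoke (against air) was also tested against each vapour effect (against Room-air), in a fit of all 19 libraries, and 7 of 42 members differed for each vapour, where 21.5% of all genes tested did for Nic-free and 5.59% for Nic. Both tests share the smoke effect and the Room-air libraries. The log2 effect of smoke minus that of Nic-free was 2.00 for Slc25a30 (edgeR adjusted p 0.00213), 0.80 for Slc25a32 (0.0145), 0.65 for Slc25a42 (0.00565) and 0.63 for Slc25a35 (0.0229). It was -0.59 for Slc25a14 (0.00414), -0.41 for Slc25a26 (0.0306) and -0.33 for Slc25a44 (0.0493). Of these, Slc25a42, Slc25a30, Slc25a32 and Slc25a14 passed without each library in turn. The log2 effect of smoke minus that of Nic was 1.33 for Slc25a34 (edgeR adjusted p 0.0234), 0.82 for Slc25a39 (0.0329), 0.80 for Slc25a35 (0.0302), 0.70 for Slc25a5 (0.0459) and 0.54 for Slc25a10 (0.0475). It was -0.68 for Slc25a36 (0.0401) and -0.50 for Slc25a14 (0.0401), and each of the 7 was lost without at least 1 library. Since air and Room-air differ for 8 members, a difference between the control sets enters these values and cannot be told apart from the exposures.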

How the results depend on the processing

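Members past the threshold numbered 8 in Nic-free against Room-air, and 0 with neuron, choroid or astrocyte markers as covariate, with the other air set or with both air sets pooled. With neuron, choroid and astrocyte markers 47, 223 and 5 of 17235 genes passed there. For Nic against Room-air the 5 became 0 with choroid markers, 8 with DESeq2, 3 with all 19 libraries or with only the 2 groups in the fit, and 17 with the other air set. Of all genes 0 of 17235 passed there with choroid markers and 1614 of 16412 with DESeq2. The 16 of Nic against Nic-free became 0 with neuron or astrocyte markers, where 6 and 30 of 17235 genes passed. In smoke against air the 0 became 1 with neuron, 2 with choroid and 3 with astrocyte markers, 2 with DESeq2 and 6 with the other air set. Of all genes 69, 791 and 1123 of 15232 passed there with neuron, choroid and astrocyte markers, and 913 of 13625 with DESeq2. The 8 of air against Room-air became 1 with neuron and 5 with choroid markers. The 7 of smoke minus Nic-free became 0 and 3 with these markers, and the 7 of smoke minus Nic became 1 with choroid markers and 11 with DESeq2. With neuron markers 862 of 16557 genes passed in air against Room-air and 91 in smoke minus Nic-free. With the other air set 4.22% of all genes passed for Nic-free, 30% for Nic and 6.2% for smoke. Counts of all genes are not given here for pooled air sets, all 19 libraries or only the 2 groups in the fit. Nor are they for choroid markers in air against Room-air and in the differences of effects, or DESeq2 in smoke minus Nic. Member counts in those fits cannot be set against all genes. Astrocyte markers and leaving out smoke 2 and 3 were added after seeing the data. The cause was not tested.

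Leaving out 1 library gave 5 to 9, 0 to 11, 8 to 16, 0 to 0, 4 to 8, 4 to 10 and 0 to 9 member calls in the order above. Of all genes, 2186 to 3534 passed in such fits of Nic-free against Room-air and 0 to 2956 in Nic against Room-air. In Nic against Nic-free 2401 to 4679 passed, and in smoke against air 1 to 192. Those of the other comparisons are not given here. In Nic against Room-air no gene at all passed without Nic 1 or without Room-air 2, where the members also had 0. Of 1004 values of the called genes reported, under alternatives, 711 kept direction and call, 289 lost the call and 4 reversed. The 4 were Slc25a30 (0.28) and Slc25a24 (0.046) in Nic-free with the other air set, and Slc25a35 (-0.014) and Slc25a44 (0.053) in smoke minus Nic-free with neuron markers.

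With the replicate number as a block the member counts were 7, 2, 12, 0, 8, 6 and 8. Of all genes 3274, 472, 3418, 5, 3487, 3226 and 777 passed with the block. Without it 3753, 670, 4273, 244, 3761, 3558 and 925 passed. Same-numbered libraries correlated at -0.39 to 0.25 in their deviations from group means, over 0.1 in at most 1 pair per comparison, so the numbers were not taken to pair libraries. Smoke and air were sequenced least deeply, and 7 members were not tested there.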
